A study of Rattus norvegicus with 5 samples.

Results

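Knockdown of Ehmt1 in rat cortical neurons was compared with the control on all 15419 gene rows of the deposited Ehmt1 comparison, out of 16081 genes listed in at least 1 of the 4 comparisons of the series. Every row with a gene identifier was kept and the 4 rows of reads outside genes were left out. Primary cortical neurons were isolated from rat embryos at embryonic day 18 and grown for 21 days in vitro, and 500 ng of total RNA went into each library. The control group, called GFP (green fluorescent protein) in the table names, and the Ehmt1 group, which received a short hairpin RNA (shRNA) against Ehmt1, are listed as 1 sample each, and so are the Smarcb1, Mll3 and Mbd5 shRNA groups used for reference. All groups are cultures of the same age. The labels give neither the hairpin sequence nor the vector, and an shRNA lowers a transcript without removing the gene.

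Ehmt1 encodes a histone methyltransferase, also called GLP, which acts in a complex with its relative Ehmt2 (G9a) to methylate a lysine on the tail of histone H3. That mark is linked to silenced chromatin. Loss-of-function variants of the human gene cause Kleefstra syndrome, a disorder with intellectual disability. The proteins lowered in the other groups also act on chromatin: Smarcb1 is a subunit of a nucleosome remodelling complex, Mll3 (Kmt2c) methylates histone H3 at enhancers, and Mbd5 is a protein with a methyl-CpG-binding domain.

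The tables name genes by Ensembl identifiers alone, and 0 of these identifiers could be matched to a symbol in the RefSeq tables used here (assembly GRCr8). The level of Ehmt1 itself, the check of the knockdown, was therefore not analysed here. For the same reason no cell type marker, pathway list, promoter or protein sequence was examined. Genes are described below by level, size and direction of change, with identifiers for 2 rises and 2 falls.

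In the Ehmt1 knockdown more genes rose than fell. The authors' deposited table gives an adjusted p for 12728 genes. Of these, 315 were called higher (2.47%) and 123 lower (0.966%), or 3.44% together, where called means an adjusted p under 0.05. The median size of a called change in the authors' deposited table was 0.83 on the log2 scale for rises and 0.76 for falls. Without adjustment, 1456 gene rows (9.44%) of the authors' deposited table had a p-value under 0.05, 878 of them higher and 578 lower. The excess of rises was thus larger among the called genes than among all genes with a small unadjusted p.

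**Figure D1:**
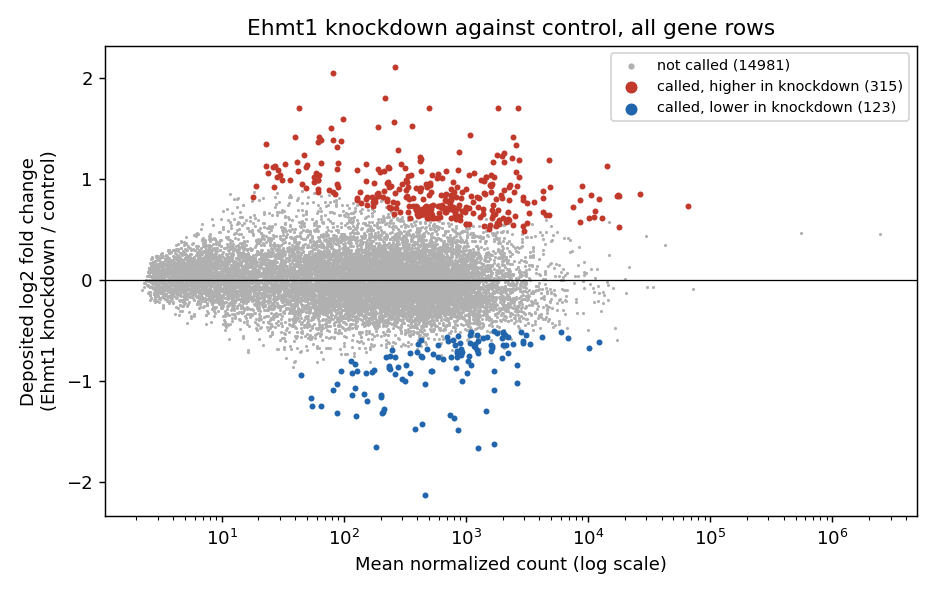
Deposited log2 fold change (vertical axis, Ehmt1 knockdown over control) against the mean normalized count (horizontal axis, log scale) of each of 15419 gene rows; red and blue points are the 315 higher and 123 lower called genes, and grey points were not called. Rises outnumber falls, and called changes at high counts include smaller ones than at low counts.

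The size of change that could be called depended on the level. Genes were split into 5 bins of equal size by the mean normalized count, which is not per length and so ranks genes by information, not by abundance of the transcript. In the highest bin (means from 563 upward) 154 genes were higher and 70 lower, or 4.99% and 2.27% of the 3084 tested, and the smallest called change in the authors' deposited table was 0.48. In the bin from 18.7 to 94.2 only 45 rose and 7 fell among 3084 tested genes, and the smallest called change in the authors' deposited table was 0.85. In the lowest bin 393 genes had an adjusted p at all, and 1 of them was called. Rises outnumbered falls in each of the 5 bins, with falls making up 31.2% of the calls in the highest bin, 22% in the next, 39.3% in the middle bin and 13.5% in the one below it. The smallest change that could be called was larger at low counts, so the calls there are the larger changes.

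**Figure D2:**
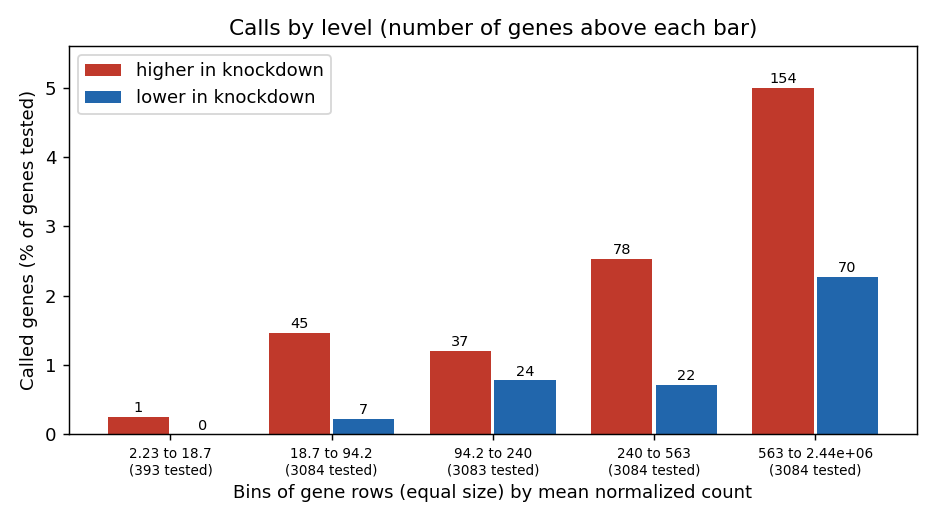
Called genes as a percentage of the genes tested (vertical axis) in 5 equal bins of all gene rows by mean normalized count (horizontal axis), for genes higher (red) and lower (blue) in the Ehmt1 knockdown; the number above a bar is its count of genes. The share called was highest in the top bin, 4.99% higher and 2.27% lower.

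The direction had to be read from the data, because the table's header gives no sign convention. The 4 tables hold a common control, so the control level that each implies from a gene's mean and fold change has to match across them. The deposited standard errors rose to a ceiling of 0.289 at intermediate means and fell again at the lowest means, with a median of 0.19 in the lowest of 10 equal bins of genes, 0.29 in the third and 0.17 in the highest. No source used here states that a prior was applied. Shrinkage of the folds toward 0 under a normal prior would give this shape, with a ceiling at 0.5 of the prior's SD, which puts that SD at 0.578 on the log2 scale in the Ehmt1 table. With the prior undone in this way and control and knockdown contributing equally, the control levels implied by the 4 tables departed from their mean by 0.0019 (mean absolute log2 departure over 6648 genes with means of at least 200). With fold changes as deposited the departure was 0.013, and with the Ehmt1 sign turned round, the next closest of the 16 readings, it was 0.093.

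Among the control shares tried, the match was closest at 0.5. With the control taken as 0.45 or 0.55 of the libraries, in place of 0.5, the departure was 0.013 for either share. With a prior wider by a factor of 1.1 it was 0.0042, and no narrower prior was tried. For the Ehmt1 table alone, 98.9% of the 6648 genes had an implied control level within 0.05 (log2) of the median of the other 3 tables, against 14.2% with the sign turned round. Positive values in the Ehmt1 table were accordingly read as higher in the knockdown. Those of the other 3 tables were read as higher in the control and are printed with the sign turned round, as knockdown over control.

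**Figure D3:**
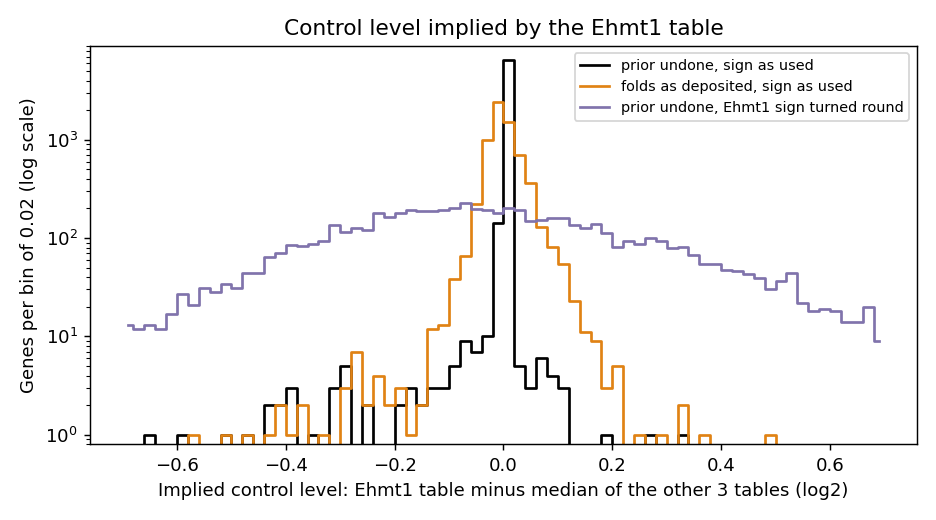
Number of genes (vertical axis, log scale, bins of 0.02) by the log2 difference between the implied control level of the Ehmt1 table and the median of the other 3 tables (horizontal axis), for 6648 genes. With the prior undone (black) 98.9% of genes lie within 0.05 of 0, with deposited folds (orange) 89.4%, and with the Ehmt1 sign turned round (purple) 14.2%, with 308 further genes of the last outside the axis.

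Genes listed only once bear on the sign alone, and not on what the knockdown did, because their selection fixes the group in which they are high. A gene that is in the Ehmt1 table and in none of the other tables, all of which hold the control, can owe its counts only to the Ehmt1 libraries or to a count near the lower limit of listing. There were 190 such genes, with means from 2.48 to 23.3 and a median of 3.34, and 187 of them (98.4%) had positive deposited values, which the reading used takes as higher in the knockdown, the group to which their listing assigns them. The same match of reading and listing held for 83.9% of 56 genes listed only for Smarcb1, 91.9% of 86 for Mll3 and 80.6% of 217 for Mbd5. Of the 190 genes 1 had an adjusted p, and it was called: its mean normalized count was 23.3 and its log2 fold change 1.34 (SE 0.28), with an adjusted p of 2.18e-04, as the authors' deposited table gives it. That gene is singled out because it was the only call among them, after its values were seen, and its direction follows from the same selection.

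Undoing the prior gave levels for both groups. A level was kept where the implied control was within 0.05 (log2) of the other tables, which held for 11953 of the 12728 tested genes (93.9%) and for 417 of the 438 called ones. The other 21 called genes, all higher in the knockdown, had means between 18.1 and 81.9, where the standard error alone does not fix the fold. Called changes were larger on this scale by construction, since undoing a shrinkage toward 0 enlarges every change. The median rise was 0.94 on the log2 scale, a 1.92-fold change over 294 genes, and the median fall was 0.89, a 1.85-fold change over 123 genes. At least a 2-fold change was seen in 129 rises and 50 falls, where the deposited values reached it in 82 and 30. A change of at least 4-fold was seen in 8 rises and 4 falls.

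In summed counts, the 294 genes that rose had 380579 normalized counts per library in the control and 701084 in the knockdown. The 123 genes that fell had 187103 in the control and 107958 in the knockdown. The gene rows of the table summed to 9963179 normalized counts per library on average, so the called genes held a small part of all counts in either group.

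The largest rise among genes whose mean count reached the median (157) was that of ENSRNOG00000033837. Its recovered level was 75.6 normalized counts in the control and 450 in the Ehmt1 knockdown. The gene was therefore 5.95-fold higher, a log2 change of 2.57 (SE 0.27, 95% CI 2.04 to 3.11). Its control level was under the median of 157, so the gene entered this ranking only through its Ehmt1 level. In the authors' deposited table the log2 fold change was 2.10 (SE 0.22) with an adjusted p of 1.46e-17. Its level was 12.6 in the Smarcb1 knockdown, 8.59 in the Mll3 knockdown and 83.7 in the Mbd5 knockdown. The Ehmt1 group was the only knockdown called above the control, the Smarcb1 and Mll3 groups were called below it, and the Mbd5 level was within 1 SE of it.

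The rise with the smallest adjusted p was that of ENSRNOG00000030714. Its level was 1157 normalized counts in the control and 4156 in the Ehmt1 knockdown, a 3.59-fold rise or 1.85 on the log2 scale (SE 0.17, 95% CI 1.52 to 2.17). The adjusted p in the authors' deposited table was 3.78e-24, the smallest of all genes in the comparison. In the Smarcb1 and Mll3 knockdowns its level was 256 and 167, both below the control. For Mbd5 no level was recovered, although the mean there was 1142, because the implied control level did not match that of the other comparisons. The log2 fold change for Mbd5 in the authors' deposited table was -0.28 (SE 0.29, adjusted p 0.73).

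The largest fall among genes whose mean count reached the median was that of ENSRNOG00000019321. Its level was 778 normalized counts in the control and 142 in the Ehmt1 knockdown, which left 18.2% of the control level, a log2 change of -2.46 (SE 0.23, 95% CI -2.90 to -2.01). The adjusted p in the authors' deposited table was 4.04e-23. The level was 359 in the Smarcb1 knockdown, 102 in the Mll3 knockdown and 596 in the Mbd5 knockdown. All 4 knockdowns were below the control, with the Mbd5 value not called (adjusted p 0.582 in the authors' deposited table). The Ehmt1 and Mll3 levels were the lowest, and their difference was not called, at 0.48 on the log2 scale (95% CI -0.21 to 1.17, adjusted p 0.501).

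The second largest fall among these genes by the deposited value was that of ENSRNOG00000026124. With the prior undone, the genes at deposited ranks 3 and 4 had larger falls, with log2 changes of -2.18 and -1.90. The fall of ENSRNOG00000026124 was larger with Ehmt1 than with each other knockdown (adjusted p between 2.07e-10 and 0.0251 for the Wald test of each difference). Its level was 1972 normalized counts in the control and 555 in the Ehmt1 knockdown, 28.1% of the control, a log2 change of -1.83 (SE 0.18, 95% CI -2.19 to -1.47). The adjusted p in the authors' deposited table was 7.58e-20. Its level was 1103 in the Smarcb1 knockdown, 2331 in the Mll3 knockdown and 1896 in the Mbd5 knockdown. The Smarcb1 value passed the threshold (adjusted p 0.0181 in the authors' deposited table), and those of Mll3 and Mbd5 did not (0.674 and 0.952).

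**Figure D4:**
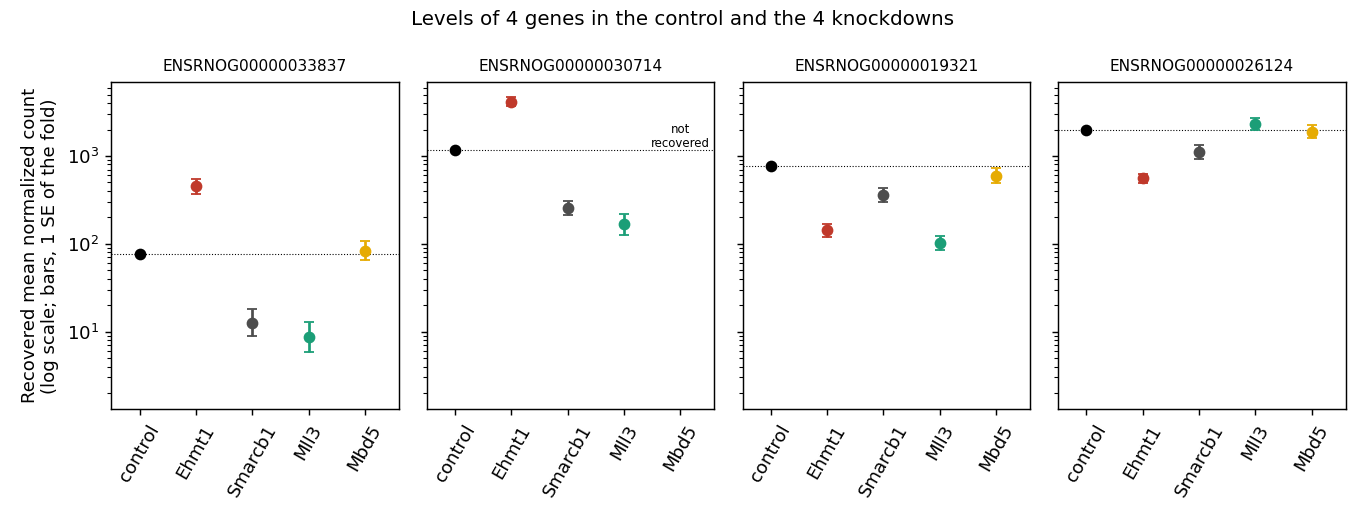
Recovered mean normalized count (vertical axis, log scale) of 4 genes, 1 per panel, in the control (black, dotted line) and the 4 knockdowns, on the scale of the Ehmt1 table; bars are 1 SE of the fold against the control. Both genes that rose with Ehmt1 knockdown lie below the control with Smarcb1 and Mll3 knockdown, and ENSRNOG00000026124 is lowest with Ehmt1 knockdown.

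The 15 largest rises and the 15 largest falls among genes that reached this median spanned a moderate range. For the rises the control level ran from 75.4 to 1361 and the Ehmt1 level from 300.2 to 4156, with folds of 2.70 to 5.95. For the falls the control level ran from 291 to 2672 and the Ehmt1 level from 65.8 to 792, with folds of 2.59 to 5.49. The mean count is taken over both groups. A rise with a control level under this median therefore entered through its Ehmt1 level, and a fall with an Ehmt1 level under it through its control level. The same genes were then read in the other comparisons, which share the control libraries with this one, so that their values are set side by side and not tested against each other here.

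Among the 15 rises the median log2 change with the prior undone was 1.82 with Ehmt1, -1.63 with Smarcb1 (range -2.58 to 0.46) and -0.83 with Mll3 (range -3.13 to 0.71). With Mbd5 it was -0.49 over the 9 genes with a level (range -1.99 to 0.32), where all 15 had a level with Smarcb1 and with Mll3. The remaining genes did not pass the match of control levels for Mbd5 and so have no test of the difference from it. Of these 15 genes in the authors' deposited tables, 10 were called lower with Smarcb1, 7 with Mll3 and 1 with Mbd5, and 0 were called higher in any of them. Over all tested genes 8.39% were called lower and 2.66% higher with Smarcb1, 8.34% and 1.52% with Mll3, and 2.68% and 0.89% with Mbd5.

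Among the 15 falls the median log2 change was -1.63 with Ehmt1, -0.68 with Smarcb1 (range -2.96 to 0.52), -0.20 with Mll3 (range -5.61 to 0.66) and -0.38 with Mbd5 (range -1.73 to 0.43). Of these genes in the authors' deposited tables, 5 were called lower with Smarcb1, 6 with Mll3 and 5 with Mbd5, and 0 were called higher. Over all tested genes the shares called lower were 8.39%, 8.34% and 2.68%, and those called higher 2.66%, 1.52% and 0.89%. The members were ranked by their Ehmt1 value, and that value rests on the same control libraries as the other 3. A control value high by chance would lower the change in each knockdown.

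**Figure D5:**
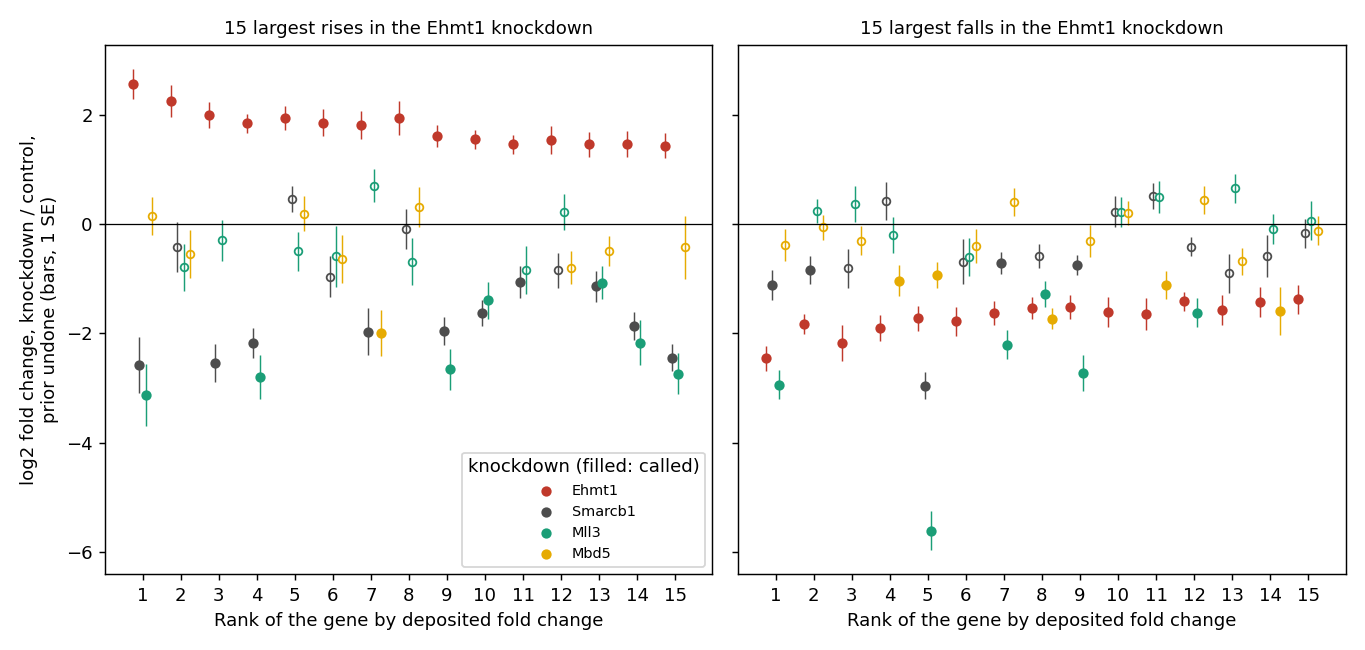
Log2 fold change over the control with the prior undone (vertical axis; bars, 1 SE) in the 4 knockdowns for the 15 genes with the largest rise (left) and the largest fall (right) in the Ehmt1 knockdown, by rank (horizontal axis); filled points were called in the authors' deposited table of that knockdown, open points were not, and genes without a recovered level have no point. All rises lie between 1.43 and 2.57 with Ehmt1, and the other knockdowns have 0 filled points above the line.

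Whether the Ehmt1 knockdown differed from each other knockdown was tested directly. The difference of the changes against the control cancels the control and compares the levels of the 2 knockdowns. Its standard error was taken from both folds as if they were independent, which overstates it where the control is shared. A gene was called at a Benjamini-Hochberg adjusted p under 0.05 of this Wald test over all genes with a level in both tables. The level was higher with Ehmt1 than with Smarcb1 knockdown for 998 of 11942 genes (8.36%) and lower for 195 (1.63%). It was higher than with Mll3 knockdown for 1067 of 11946 genes (8.93%) and lower for 144 (1.21%). Against Mbd5 knockdown 490 of 11838 genes were higher (4.14%) and 175 lower (1.48%).

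The genes higher with Ehmt1 were also read against the calls of the other knockdown over the control. Of the 998 genes higher with Ehmt1 than with Smarcb1, 772 were called lower than the control with Smarcb1, and of the 1067 for Mll3, 840 were called lower than the control with Mll3. For Mbd5 this was 172 of 490. Taken over every tested gene, Smarcb1 had 8.39% called lower, Mll3 had 8.34% and Mbd5 had 2.68%. A low value in the other knockdown enlarges the difference by which these genes were selected, so an excess over those shares is partly built in. How many of the differences rest on a change in the other knockdown was therefore not tested.

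Genes were also counted where the Ehmt1 knockdown differed from the control and from each of the other 3 knockdowns in the same direction. This rule does not ask that the other knockdowns leave the gene at its control level. Of 11828 genes with all 4 tests, 175 were higher (1.48%) and 12 lower (0.101%) in the Ehmt1 knockdown than in every other group. These are 62.7% of the 279 rises and 9.76% of the 123 falls with all 4 tests. The 4 tests share the Ehmt1 libraries, and a gene called against the control carries the chance values of those libraries into the other 3. The 175 genes had a median log2 change over the control of 0.93 with Ehmt1 (range 0.56 to 2.57), -1.03 with Smarcb1, -1.42 with Mll3 and -0.47 with Mbd5. The medians for the other knockdowns come from values that the rule itself used, since a low value there helps a gene to pass. Whether these genes changed in the other knockdowns was therefore not tested, and the rule does not show a change confined to Ehmt1. ENSRNOG00000033837 was among them, and so were 8 of the 15 largest rises, of which 9 had a level in all 4 tables. The 12 lower genes had a median log2 change of -1.40 with Ehmt1, and of 0.22, 0.26 and 0.17 with Smarcb1, Mll3 and Mbd5. ENSRNOG00000026124 was among these. Rises passed the rule more often than falls, but the other groups had more falls than rises. Over all tested genes 8.39% were called lower and 2.66% higher with Smarcb1, 8.34% and 1.52% with Mll3, and 2.68% and 0.89% with Mbd5. A rise with Ehmt1 passes more easily where the other knockdowns fall. How much of the 62.7% and 9.76% rests on those falls was not tested, and these shares were not tested against each other.

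Replicate values are not part of the tables, so no value of a single library could be given, and the number of libraries behind each standard error is unknown. The p-values measure the spread between libraries that the labels do not describe, which may be technical. In bulk RNA from a culture, fewer cells of a type and less RNA per cell cannot be told apart.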

How the data were processed

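The authors deposited 4 comparisons, the control with 1 knockdown in each. STAR 2.5.2b, DESeq2 and the genome build Rnor_6.0 are named in the submitters' processing notes, with no role given; the counting and the number of libraries are not given in the sources used here. Per the file headers, the authors' tables hold a mean normalized count (a signal: counts divided by size factors), a log2 fold change, its standard error on the log2 scale, a Wald score, and a p-value with its Benjamini-Hochberg adjustment. Genes under a mean of 14.2 carry no adjusted p in the deposited Ehmt1 table. The non-gene rows took 45.3% of its normalized counts. Depth of single libraries is unknown.

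Called genes are those with a deposited adjusted p under 0.05. For a prior of precision L and a gene with information I, a deposited fold is the free fold times I/(I + L), and its standard error is the root of I over (I + L). L was set from the highest standard error of a table and I solved per gene (the larger root), which gave the free fold and both group levels, scaled to the Ehmt1 table. Differences between knockdowns were tested over all genes with a Wald test and Benjamini-Hochberg adjustment. Python 3.11.15, pandas 2.3.3, numpy 2.4.6 and scipy 1.17.1 were used.

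Named genes were the 15 largest rises and falls among called genes whose mean count reached the median, and the 10 smallest adjusted ps. That rule also asked for a symbol and for members of fixed gene lists, which could not be applied because no identifier had a symbol. The genes, lists and tests were chosen with earlier results of these data known, and undoing the prior and the differences between knockdowns were added after the tables were seen.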

Additional observations from a re-analysis of the deposited data

Results flagged for a closer look

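The named genes whose change differed between the Ehmt1 knockdown and another knockdown by the test of the difference were the following, as log2 change with Ehmt1 minus log2 change with the other (Wald test over all genes, adjusted ps). For ENSRNOG00000033837 the difference was 5.15 (SE 0.58, adjusted p 2.20e-16) from Smarcb1, 5.71 (SE 0.63, 1.53e-16) from Mll3 and 2.42 (SE 0.44, 1.63e-05) from Mbd5. For ENSRNOG00000030714 it was 4.02 (SE 0.33, 1.44e-31) from Smarcb1 and 4.64 (SE 0.43, 7.17e-23) from Mll3. For ENSRNOG00000019321 it was -1.34 (SE 0.36, 0.00306) from Smarcb1 and -2.07 (SE 0.37, 8.66e-06) from Mbd5. For ENSRNOG00000026124 it was -0.99 (SE 0.32, 0.0251) from Smarcb1, -2.07 (SE 0.29, 2.07e-10) from Mll3 and -1.77 (SE 0.30, 1.57e-06) from Mbd5. These genes were picked for the size or the adjusted p of their change in the Ehmt1 comparison, which enters each difference. ENSRNOG00000033837 also reached the median count only through its Ehmt1 level. The adjusted ps above are therefore not independent of how the genes were picked.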

How the results depend on the processing

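The count of 438 called genes was 271 at an adjusted p under 0.01, 112 with a deposited log2 change of at least 1 and 179 with the prior undone and the same minimum. It was 553 under 0.1, 418 without the filter on the mean, 362 where the mean count reached the median and 417 among genes with recovered levels. The share of falls, 28.1% of the called genes, which come from the same libraries and so give no error for the knockdown, lay between 26.2% and 29.7% in these settings and was 71.9% with the sign turned round, which follows from that setting's construction. Centring on the median of all gene rows (-0.010) moved no share. The reading of the sign came first of 16 at minimum means of 50 and 1000 and with deposited folds. At an adjusted p under 0.01, 794 genes differed from Smarcb1 (1193 under 0.05) and 336 from Mbd5 (665 under 0.05), fewer because the threshold is stricter. With folds and standard errors as deposited, 1260 genes differed from Mll3 (1211 with the prior undone) and 677 from Mbd5. Called members of the gene lists were not run, since no identifier had a symbol, and no replicate could be left out, since the tables hold no library.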

Other observations

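A pair of gene rows, picked for their mean count after the values were seen, held much of the counts. The row with the highest count had a mean of 2439870 normalized counts, 24.5% of all gene counts. Its log2 fold change was 0.45 (SE 0.17), with a p-value of 0.00897 and an adjusted p of 0.161 in the authors' deposited table. The second held 5.54%, with 0.47 (SE 0.24, adjusted p 0.457) in the authors' deposited table, and the third 0.73%. Neither of the first 2 was called, though both values were above 0.

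The called gene with the highest count had a mean of 65983 normalized counts and rose by 0.73 on the log2 scale (SE 0.15, adjusted p 2.34e-04) in the authors' deposited table.

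Reads outside genes were not called in the authors' deposited table: the log2 fold change was 0.24 (SE 0.21) for unmapped reads, -0.073 (SE 0.15) for multimapping, 0.11 (SE 0.19) for reads without a feature and -0.078 (SE 0.18) for ambiguous reads.

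Against the other tables, 138 genes listed for Smarcb1, Mll3 and Mbd5 were missing from the Ehmt1 table, whose lowest listed mean was 2.23. Each of the other tables also lacked genes that all the rest listed: 82 for Smarcb1, 87 for Mll3 and 31 for Mbd5.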
